A study of Mus musculus with 15 samples.

Results

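The genes described here act in GABA and glutamate metabolism and transport, and were measured in nuclei of parvalbumin (Pv) neurons, fast-spiking inhibitory interneurons of the mouse cerebral cortex. They are 7 genes, taken by symbol from a list of known roles, and chosen with earlier results of these data known. Gad1 and Gad2 stand for GABA synthesis, Slc32a1 for vesicle loading, Slc6a11 for uptake, Abat and Aldh5a1 for breakdown, and Gls2 is a glutaminase. All 7 were listed in every one of the 15 libraries, out of 46380 gene symbols that the libraries share, and all 7 passed the filter on low counts in every comparison.

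The study asks how thyroid hormones act on Pv neurons. Sorted fluorescent nuclei from single cortices of adult mice gave amplified nuclear RNA, sequenced as single-end reads of 75 bases. All mice carried PvCre, a Cre driven by the Pv gene, and the ROSA-tomato-lox reporter that Cre switches on. Ctrl mice (n = 4) were untreated and Thra+/+, wild type for thyroid hormone receptor alpha. Mut mice (n = 4) were littermates with the ThraAMI/+ genotype, a floxed allele from which the dominant negative receptor TRalpha1L400R is made, beside 1 normal copy. PTU mice (n = 3) were Thra+/+ and ate propylthiouracil, a blocker of hormone synthesis, for 2 weeks. PTU_TH mice (n = 4) were Thra+/+, had the same diet, and received thyroid hormone into the peritoneum 24 h before dissection. The diet and the injection reach the whole animal, whereas the mutant receptor depends on the Pv-driven Cre. The sources used here give neither age nor sex.

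GABA, the main inhibitory transmitter of the cortex, is made from glutamate by the glutamate decarboxylases GAD67 (Gad1) and GAD65 (Gad2), and glutamate itself comes in part from glutamine through glutaminases such as Gls2. The vesicular transporter VGAT (Slc32a1) fills synaptic vesicles with GABA, and after release GABA is taken back up by plasma membrane transporters, among them GAT3 (Slc6a11), best known from astrocytes. GABA transaminase (Abat) and succinic semialdehyde dehydrogenase (Aldh5a1) then break GABA down in mitochondria and feed its carbon into the tricarboxylic acid cycle.

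Gad1 has a close relative whose reads could be confused with its own, so sequences that show how far they differ are given first. The relative, the processed pseudogene Gad1-ps, matched 95.0% of 1767 aligned bases of the Gad1 coding sequence. Of the 1702 windows of 75 bases in Gad1-ps, 36 were identical to Gad1. The stretch below, read on the coding strand from GENCODE M21 transcripts of GRCm38, holds 120 bases with 3 differences, marked by capitals. In Gad1 it spans a splice junction between chr2:70599629 and chr2:70600672, and in Gad1-ps it lies unbroken at chr10:99445575-99445694.
Gad1: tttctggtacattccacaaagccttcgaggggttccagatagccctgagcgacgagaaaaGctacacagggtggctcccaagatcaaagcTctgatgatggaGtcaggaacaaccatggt
Gad1-ps: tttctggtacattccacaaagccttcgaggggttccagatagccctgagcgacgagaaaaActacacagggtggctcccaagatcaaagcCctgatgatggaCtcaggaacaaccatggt
Gad1 and Gad2 matched 67.1% of 1740 aligned bases and shared no window of 75 bases. Reads as long as those sequenced can therefore be told apart between Gad1 and Gad2 by an exact match over the coding sequence, while part of the reads of Gad1 and Gad1-ps cannot.

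The tables came in 2 sets. Totals ran from 12957838 to 19141683 counts in the PTU and PTU_TH libraries (55341 listed genes), and from 22333742 to 32571175 in those of Ctrl and Mut (48321 listed genes). A comparison of PTU or PTU_TH with Ctrl crosses the sets, and there the treatment and the set cannot be told apart. Thra, counted without separating its alleles, was 58.7 ± 6.41 counts per 1000000 (CPM, scaled by TMM over the 15 libraries) in Ctrl and 32.8 ± 4.74 in Mut (SD, n = 4 each). Hr, a gene induced by the hormone through its receptors, averaged 14.6 CPM in Ctrl, 1.76 in Mut, 3.91 in PTU and 47.1 in PTU_TH. Of 10 Pv neuron markers, 9 were detected in all libraries, with a summed level of 5336 to 9843 CPM, and Cox6a2 was at 0 throughout. Lists of 10 markers of other cells summed to 242 to 513 CPM for excitatory neurons, 79.6 to 191 for oligodendrocytes and their precursors, 62.1 to 101 for microglia and 8.53 to 36.0 for endothelium and mural cells. Y-linked counts were present in 4 of 7 PTU and PTU_TH libraries (PTU 6 and 7, PTU_TH 3 and 4) and in 4 of 8 Ctrl and Mut libraries (Ctrl 2, Mut 1, 2 and 3). Libraries also differed in the share of counts from genes longer than 100 kb. In the PTU and PTU_TH set this share was 24.9% to 28.4% with Y-linked counts and 34.1% to 40.7% without. In bulk nuclei, fewer cells of a type and less RNA per cell cannot be told apart.

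Gls2 was higher in every injected mouse than in every PTU mouse, and Gls2 and Abat were higher in every injected mouse than in every Ctrl mouse. The other 5 genes had overlapping ranges in these comparisons, and in Mut the lower levels that did not overlap Ctrl were those of Slc32a1 and Gls2. Changes are log2 differences ± SE from edgeR's quasi-likelihood test, and a gene is called where the adjusted p (Benjamini-Hochberg over all tested genes) is under 0.05. For PTU_TH against PTU, 0 of 7 members were called, beside 0.281% of the 15288 genes tested. At an unadjusted p under 0.05 edgeR counted 1 member, Gls2, beside 7.37% of all genes, and DESeq2 called that gene. Its group ranges did not overlap, as for 8.59% of all genes. For Mut against Ctrl, edgeR and DESeq2 each called 0 of 7 members, and edgeR called 0.348% of 16949 genes. At an unadjusted p under 0.05 there were 3 members, Slc32a1, Slc6a11 and Gls2, beside 8.74% of all genes, and 2 of these, Slc32a1 and Gls2, had ranges that did not overlap, against 6.12% of all genes.

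The cross-set comparisons share the Ctrl libraries with Mut against Ctrl. For PTU against Ctrl, edgeR and DESeq2 each called 0 of 7 members while edgeR called 17.0% of 16496 genes. No member had an unadjusted p under 0.05, beside 28.8% of all genes, and none had ranges that did not overlap, against 27.6% of all genes. For PTU_TH against Ctrl, 1 of 7 members was called, Abat, beside 17.8% of 15814 genes, and 2, Abat and Gls2, had ranges that did not overlap, against 23.2% of all genes. The share of members called there is near that of all genes. The median log2 change of the 7 members was 0.13 after the injection and -0.08 in the mutant. Relative to Ctrl it was -0.01 in PTU and 0.28 in PTU_TH, where the medians of all genes lay between -0.02 and 0.01. With 1 library left out the median of the members ran from -0.15 to 0.035 in the mutant, turning positive without Mut 2. For PTU against Ctrl it ran from -0.19 without PTU 7 to 0.17 without PTU 5, and it was also positive without Ctrl 3 or Ctrl 4. It stayed positive in both comparisons of injected mice, at 0.074 to 0.24 against PTU and 0.21 to 0.33 against Ctrl.

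**Figure D1:**
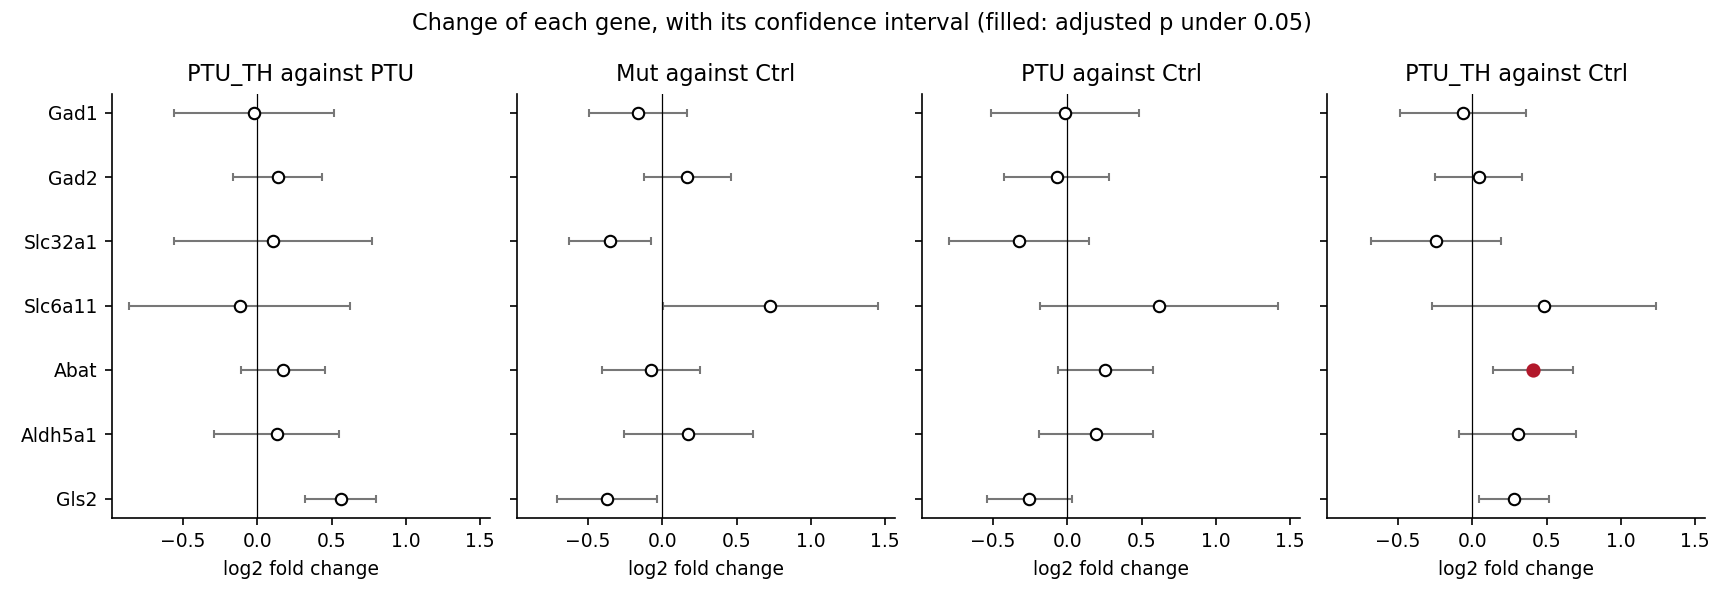
Log2 change of each of the 7 genes in the 4 comparisons, with 95% intervals from the edgeR fit. The interval of Gls2 lies above 0 in both comparisons of injected mice, and Abat in PTU_TH against Ctrl is the filled point past an adjusted p of 0.05.

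Gad1 (chromosome 2, 70553072 to 70602014, plus strand, GRCm38) encodes GAD67, the decarboxylase found throughout the cell. It was the most abundant member in every library. Its level in Ctrl replicates 1 to 4 was 1102, 1457, 1560.0 and 1678 CPM, and in Mut replicates 1192, 1358, 1323 and 1305 CPM. PTU replicates 5, 6 and 7 had 1028, 1505 and 1746 CPM, and PTU_TH replicates 1 to 4 had 1348, 1048, 1401 and 1753 CPM. All 4 groups overlapped, and the mice within a group differed more than the groups did. The injection comparison gave a log2 change of -0.03 ± 0.24 and the mutant comparison -0.16 ± 0.15. Relative to Ctrl, PTU differed by -0.01 ± 0.23 and PTU_TH by -0.06 ± 0.20. The 95% interval for the injection ran from -0.56 to 0.51, so a change of up to about that size either way was not resolved.

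The spread of Gad1 followed the library differences described above. In the PTU and PTU_TH set, Gad1 was 1401 to 1753 CPM in the 4 libraries with Y-linked counts and 1028 to 1348 CPM in the 3 without, which do not overlap. In the Ctrl and Mut set the corresponding ranges, 1192 to 1457 and 1102 to 1678 CPM, overlapped. Across 15 libraries, centred within each set, the log2 level of Gad1 had r = -0.87 with the share of counts from long genes. These points share their library's amplification and depth, and that share moves with Y-linked counts in the PTU set, so the part of each was not tested. With presence of Y-linked counts as a covariate, Gad1 was 0.07 ± 0.14 for PTU_TH against PTU.

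**Figure D2:**
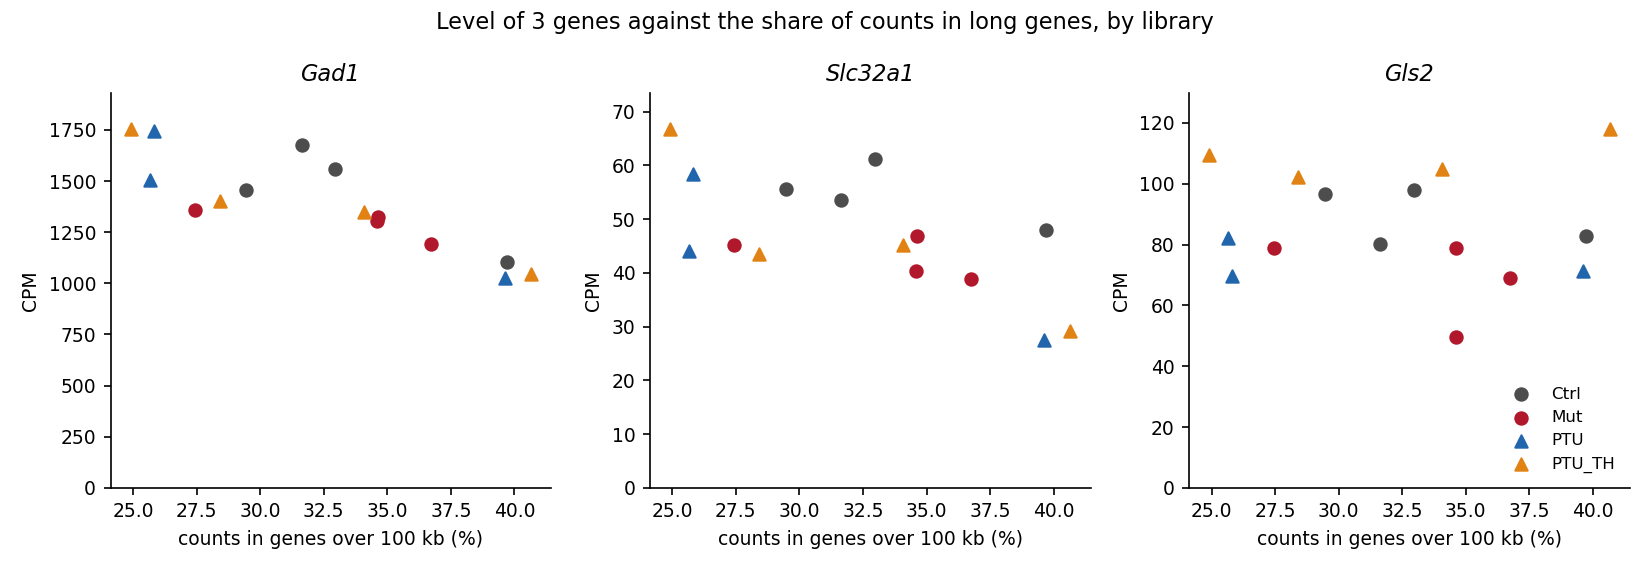
Level of Gad1, Slc32a1 and Gls2 in CPM against the percentage of counts from genes longer than 100 kb, 1 point per library, coloured by group (circles for Ctrl and Mut, triangles for PTU and PTU_TH). Gad1 and Slc32a1 are lower in libraries with a larger share (r = -0.87 and -0.75 over 15 libraries), and Gls2 shows no such slope (r = -0.02).

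Counts assigned to Gad1-ps equalled 9.02% to 15.6% of the Gad1 count, with the highest value in Ctrl. The range was 14.3% to 14.9% in Mut, 9.27% to 13.3% in PTU and 9.02% to 13.5% in PTU_TH. Gad1-ps was also the gene whose profile was most like that of Gad1 (r = 0.99 over 15 libraries). How reads were divided between Gad1 and Gad1-ps, also those across splice junctions of Gad1, was not tested. With Gad1-ps counts added, Gad1 changed by -0.16 in Mut against Ctrl and -0.03 in PTU_TH against PTU, and no call changed.

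Gad2 (chromosome 2, 22622205 to 22693874, plus strand) encodes GAD65, the decarboxylase held mainly at terminals. Ctrl replicates had 227, 232, 301 and 301 CPM, and Mut replicates had 295, 266, 299.8 and 330.5 CPM. PTU replicates had 222, 242 and 287 CPM, and PTU_TH replicates had 291, 242, 275 and 283 CPM. The 4 groups overlapped. The log2 change was 0.14 ± 0.13 for PTU_TH against PTU and 0.17 ± 0.13 for Mut against Ctrl, with 95% intervals of -0.16 to 0.43 and -0.12 to 0.46. Against Ctrl, PTU differed by -0.07 ± 0.16 and PTU_TH by 0.04 ± 0.14. Gad2 was the steadiest member, with a highest library 1.49 times the lowest, against 1.70 times for Gad1.

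Since Gad1 and Gad2 share a reaction, their count ratio was taken per library, a choice made after the levels were seen. It was 4.86, 6.30, 5.19 and 5.57 in Ctrl and 4.04, 5.10, 4.41 and 3.95 in Mut. The Mut ratios were lower except that Mut 2 lay above Ctrl 1. The log2 ratio differed by -0.33 (exact two-sided permutation p = 0.0571, adjusted p = 0.229 over the 12 ratio comparisons computed, smallest possible p = 0.0286). The ratio was 4.63 to 6.22 in PTU and 4.33 to 6.20 in PTU_TH, which overlap. Over 15 libraries, Gad1 had r = -0.87 with the share of counts from long genes and Gad2 had r = -0.29. The part of that share in the ratio was not tested.

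Slc32a1 (chromosome 2, 158610767 to 158615748, plus strand), the vesicular GABA transporter, was lower in all 4 Mut mice than in any Ctrl mouse. Ctrl replicates had 48.0, 55.7, 61.2 and 53.6 CPM, and Mut replicates had 38.8, 45.2, 46.9 and 40.3 CPM. The log2 change was -0.35 ± 0.13 (95% interval -0.63 to -0.08), which did not pass edgeR's quasi-likelihood test after Benjamini-Hochberg adjustment (adjusted p = 0.382). PTU replicates had 27.5, 44.1 and 58.4 CPM, and PTU_TH replicates had 45.2, 29.2, 43.5 and 66.7 CPM. These groups were wide and overlapped each other and Ctrl. The injection difference was 0.11 ± 0.29, and relative to Ctrl PTU lay at -0.33 ± 0.21 and PTU_TH at -0.24 ± 0.20. The PTU value was -0.094 without PTU 5 and -0.60 without PTU 7, and that of PTU_TH was -0.084 without PTU_TH 2 and -0.47 without PTU_TH 4. PTU 5 and PTU_TH 2, the lowest libraries, were also those with the largest shares of long genes in their set, and r between Slc32a1 and that share was -0.75 over 15 libraries. Slc32a1 and Gad1 had r = 0.89 over the same 15 libraries, the highest of the 21 pairs of members. Of the exon bases of Slc32a1, 24.9% overlap an antisense gene, Gm14205, which had 0 counts in all 15 libraries. The strand setting of the counting is not given, so how reads at those bases were assigned, or whether they were left out, is not known.

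Slc6a11 (chromosome 6, 114131241 to 114249952, plus strand), the transporter GAT3, was rare in these nuclei, with 25 to 95 counts per library. Ctrl replicates had 3.39, 1.96, 1.56 and 1.69 CPM, and Mut replicates had 3.44, 3.71, 2.91 and 4.19 CPM. Ctrl 1 alone overlapped the Mut mice. The log2 change was 0.73 ± 0.33 (95% interval 0.00 to 1.45), not called by edgeR's quasi-likelihood test (adjusted p = 0.571). PTU replicates had 3.79, 2.32 and 3.75 CPM, and PTU_TH replicates had 1.85, 3.09, 2.92 and 4.16 CPM. The injected and uninjected groups overlapped, with a difference of -0.12 ± 0.33. Against Ctrl, PTU differed by 0.62 ± 0.36 and PTU_TH by 0.48 ± 0.35.

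Because GAT3 is best known from astrocytes, astrocyte markers are given beside it. The summed level of 10 such markers was 352 to 465 CPM in Ctrl, 319 to 465 in Mut, 279 to 429 in PTU and 278 to 473 in PTU_TH. Nearly all of it was Slc4a4, a bicarbonate transporter, with group means of 306 to 389 CPM. Gfap was at 0 in all 15 libraries and Aqp4 reached at most 3.37 CPM. Of the 8 markers tested in Mut against Ctrl, 4 had a positive difference, with a median log2 difference of 0.02 and 0 called. Markers of other interneurons summed to 189 to 297 CPM in Mut and 146 to 173 in Ctrl, with no overlap, and all 7 tested had a positive difference (median 0.46, 0 called by edgeR). Pv neuron markers were positive in 3 of 9 (median -0.12, 1 called by edgeR). Those of excitatory neurons were positive in 5 of 10 (0.03, 0 called) and of microglia in 2 of 6 (-0.08, 0 called). For oligodendrocytes and their precursors it was 4 of 10 (-0.04, 0 called), and for endothelium and mural cells 3 of 5 (0.18, 0 called). The part of all these markers in the differences of Slc6a11, Slc32a1, Gls2 and the related genes between Mut and Ctrl was not tested.

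Abat (chromosome 16, 8513429 to 8621568, plus strand), the transaminase that starts GABA breakdown, was higher in PTU_TH than in Ctrl in every mouse. Ctrl replicates had 231, 253, 297 and 292 CPM, and PTU_TH replicates had 359.6, 338, 352 and 372 CPM. The lowest injected mouse lay above the highest Ctrl mouse. The rise was 1.33-fold, a log2 change of 0.41 ± 0.12 (95% interval 0.14 to 0.67; adjusted p = 0.0368 by edgeR's quasi-likelihood test). This comparison crosses the sets, and the call was lost when any of 6 of the 8 libraries was left out, with adjusted p of up to 0.0953. PTU replicates had 288, 311 and 355 CPM, which overlap both groups. The log2 change was 0.17 ± 0.12 for PTU_TH against PTU and 0.25 ± 0.15 for PTU against Ctrl, neither called. The Mut replicates, with 239.9, 191, 296 and 290.4 CPM, overlapped Ctrl, and the change was -0.08 ± 0.15.

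Aldh5a1 (chromosome 13, 24907579 to 24937661, minus strand), which takes the next step of the GABA shunt, overlapped between all groups. Ctrl replicates had 14.2, 12.8, 16.8 and 16.0 CPM, and Mut replicates had 17.4, 11.8, 19.4 and 19.2 CPM. PTU replicates had 15.3, 18.1 and 17.7 CPM, and PTU_TH replicates had 21.6, 14.6, 22.3 and 15.6 CPM. Its log2 changes were positive but not called, at 0.13 ± 0.18 after the injection, 0.17 ± 0.20 in the mutant, and 0.20 ± 0.17 in PTU and 0.30 ± 0.18 in PTU_TH relative to Ctrl. Of its exon bases, 17.7% overlap noncoding genes annotated there, and the strand setting of the counting is not given, so its reads cannot be told apart from theirs at those bases.

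**Figure D3:**
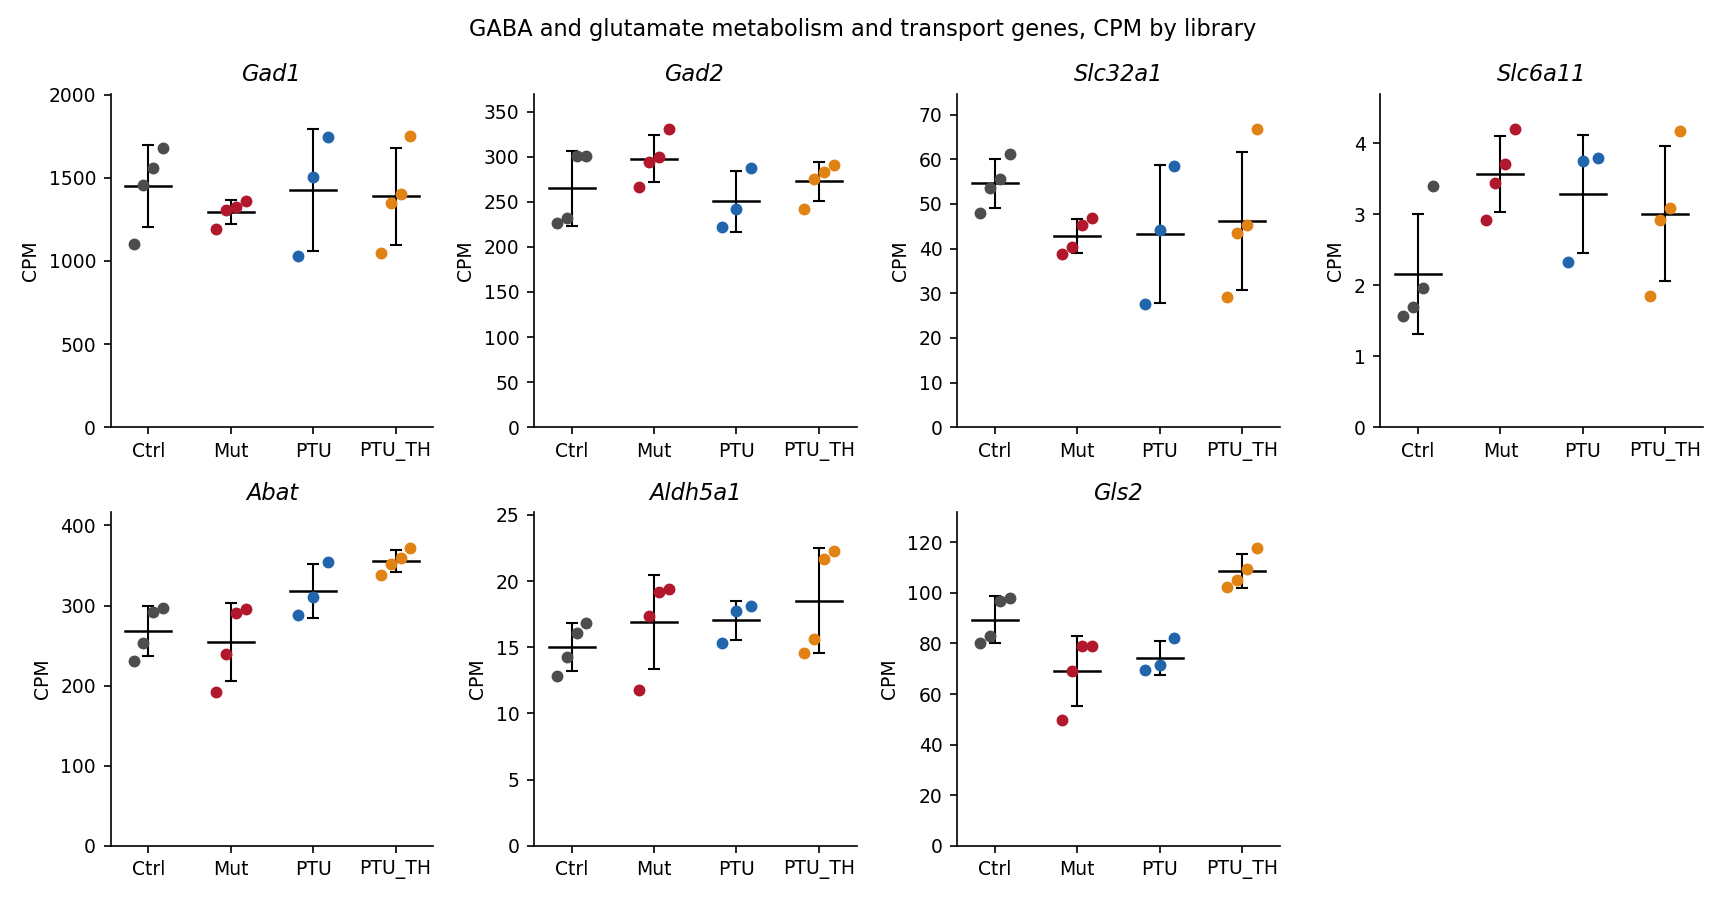
Level of the 7 genes in CPM in every library, with the mean and SD of each group (4 Ctrl, 4 Mut, 3 PTU and 4 PTU_TH mice). The injected mice stand above the PTU mice for Gls2 (102 to 118 against 69.6 to 82.1 CPM), while Gad1 and Slc32a1 spread widely within PTU and PTU_TH.

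Gls2 (chromosome 10, 128194457 to 128210004, plus strand), a mitochondrial glutaminase that frees glutamate from glutamine, separated the injected mice from every other mouse. PTU replicates had 71.3, 82.1 and 69.6 CPM, and PTU_TH replicates had 105.0, 118, 102 and 109 CPM. The lowest injected mouse lay above the highest PTU mouse. The difference was 1.47-fold, a log2 change of 0.56 ± 0.10 (95% interval 0.32 to 0.80). It did not pass edgeR's quasi-likelihood test after Benjamini-Hochberg adjustment (adjusted p = 0.0979). DESeq2 called it, with an adjusted p of 0.00261, and so did edgeR with Y-linked counts as a covariate, with an adjusted p of 0.00767. With each library left out in turn, the log2 change stayed between 0.51 and 0.62, and the adjusted p was 0.181 to 0.510.

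In the same comparison most markers of other cells had negative differences, with 0 called by edgeR in any list. The difference was positive in 1 of 7 tested markers of other interneurons (median log2 -0.31), 2 of 10 of excitatory neurons (-0.31), 2 of 8 of astrocytes (-0.25) and 2 of 10 of oligodendrocytes and their precursors (-0.21). For endothelium and mural cells it was positive in 2 of 6 (-0.08), for microglia in 5 of 8 (0.27) and for Pv neurons in 6 of 9 (0.06). Their part in the differences of Gls2 and of the related genes described further on was not tested.

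Mut replicates had 68.9, 78.9, 79.0 and 49.6 CPM of Gls2, and Ctrl replicates had 82.8, 96.7, 98.1 and 80.1 CPM. The highest Mut mouse lay just below the lowest Ctrl mouse. The log2 change was -0.37 ± 0.15 (95% interval -0.71 to -0.03), not called by edgeR's quasi-likelihood test (adjusted p = 0.507). Without Mut 4, the lowest library, it was -0.25, with an adjusted p of 0.615. With Y-linked counts as a covariate it was -0.58, with an adjusted p of 0.279. Against Ctrl, PTU differed by -0.26 ± 0.13 (adjusted p = 0.223) and PTU_TH by 0.28 ± 0.11 (adjusted p = 0.0984), again with edgeR. In ascending order of mean level the groups were Mut, PTU, Ctrl and PTU_TH. Mut and PTU overlapped, as did PTU and Ctrl.

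Gls2 shares 97 exon bases, 2.79% of its exon length, with Spryd4, which had 4.71 to 10.8 CPM. Gls2 had r = -0.02 with the share of long genes over 15 libraries. Its level in PTU and PTU_TH libraries with Y-linked counts, 69.6 to 109 CPM, overlapped that of those without, 71.3 to 118 CPM.

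Per kilobase of merged exon, the order of the members was alike across groups. In Ctrl the mean was 189.7 RPKM (counts per kilobase and per 1000000) for Gad1, 45.1 for Gad2, 34.6 for Abat, 25.7 for Gls2, 19.5 for Slc32a1, 2.65 for Aldh5a1 and 0.426 for Slc6a11. No neighbours in this order overlapped in Ctrl. The exon lengths include bases shared with other genes, 24.9% of those of Slc32a1 and 2.79% of those of Gls2. Whether reads at these bases were counted is not known, and the gap between Gls2 and Slc32a1 may depend on it. In PTU_TH the order of the means was the same, but Gad2, at 41.1 to 49.5 RPKM, overlapped Abat, at 43.7 to 48.0 RPKM. In Mut, Gls2, at 14.3 to 22.7 RPKM, overlapped Slc32a1, at 13.9 to 16.8 RPKM. In PTU both of these pairs overlapped. Gad2 was at 42.6 to 50.7 RPKM in the group means and Gad1 at 169 to 189.7, and Slc6a11 did not pass 0.831 RPKM in any library.

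Around these genes, 44 further genes of the same pathways were followed, of which 37 could be tested in each comparison. These were not all the same genes, as Pdxp was tested only in PTU_TH against PTU and Maob only in the other comparisons. After the injection 27 of the 37 had a positive and 10 a negative difference, beside 7561 positive and 7727 negative of all 15288 genes. The median log2 difference of the 37 was 0.11. EdgeR and DESeq2 each called 0, and 3 (8.11%) had an unadjusted p under 0.05 with edgeR, a share near the 7.37% of all genes. Those were Pdxk, the kinase that makes the decarboxylase cofactor pyridoxal phosphate (0.50 ± 0.14, adjusted p = 0.316), Slc25a22, a mitochondrial glutamate carrier (0.49 ± 0.15, adjusted p = 0.393), and Suclg1, a subunit of succinyl-CoA ligase (0.24 ± 0.09, adjusted p = 0.572). All 8 genes of the tricarboxylic acid cycle next to the GABA shunt had a positive difference, with a median of 0.12 and 0 called. Their differences ran from 0.03 ± 0.14 (Sucla2) to 0.65 ± 0.42 (Suclg2). In Mut against Ctrl the same 8 were 4 positive and 4 negative (median 0.003). Of the other lists, mitochondrial glutamate carriers were positive in 4 of 4 after the injection, and other GABA metabolism in 1 of 4.

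In Mut against Ctrl, 13 of the 37 were positive and 24 negative, beside 8866 positive and 8083 negative of all 16949 genes. The median of the 37 was -0.11. EdgeR called 0 and counted 2 (5.41%) at an unadjusted p under 0.05, below the 8.74% of all genes. DESeq2 called 1, Slc25a22, of 404 over all genes. Slc25a22 was 84.1 to 105.5 CPM in Mut and 116 to 139 CPM in Ctrl, with no overlap. Its log2 difference was -0.48 ± 0.12 (adjusted p = 0.130 with edgeR). In PTU it was 106 to 149 CPM and in PTU_TH 163 to 221 CPM, again with no overlap. The second gene at an unadjusted p under 0.05 was Ogdhl, a paralogue of the oxoglutarate dehydrogenase subunit, at -0.36 ± 0.15 (adjusted p = 0.479 with edgeR).

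PTU_TH against PTU and Mut against Ctrl share no library, so their signs can be set side by side. Of the 7 members, 3 (Slc32a1, Abat and Gls2) had a positive difference after the injection and a negative one in Mut, 1 (Slc6a11) had the reverse, and 3 (Gad1, Gad2 and Aldh5a1) had the same sign in both. Of 36 related genes tested in both, 17 were positive after the injection and negative in Mut, 4 the reverse, 9 positive in both and 6 negative in both. Most of these differences lie within their errors. The same pairs of signs were not counted over all genes, so the signs are a description only.

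**Figure D4:**
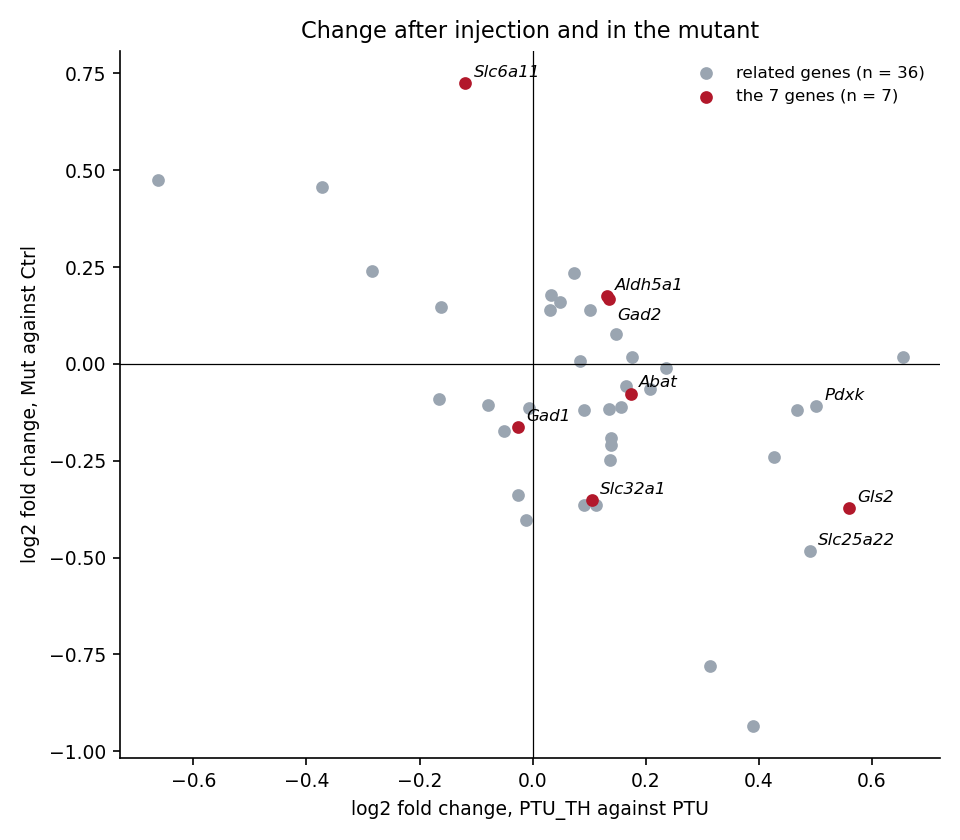
Log2 change of PTU_TH against PTU (x axis) and of Mut against Ctrl (y axis) for the 7 members and the related genes. Gls2 (0.56 and -0.37) and Slc25a22 (0.49 and -0.48) lie at the lower right, positive after the injection and negative in the mutant, with Slc32a1 and Abat closer to 0 on the x axis.

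Across the sets, edgeR's quasi-likelihood test called 4 of the 37 related genes in PTU and 5 in PTU_TH relative to Ctrl, and DESeq2 called 6 and 7. Over all genes edgeR called 17.0% and 17.8%, so the share of related genes it called was not above that of all genes. No such share is given for DESeq2, and the genes below are described singly. Csad, a decarboxylase of taurine synthesis, rose by 0.92 in PTU (adjusted p = 0.00175) and by 0.85 in PTU_TH (adjusted p = 0.000682). It was 17.2 to 22.5 CPM in Ctrl, 34.4 to 41.6 CPM in PTU and 32.3 to 38.5 CPM in PTU_TH. Aldh9a1, which can make GABA from putrescine-derived aldehyde, rose by 0.57 in PTU (adjusted p = 0.0163), and was 0.26 ± 0.13 in PTU_TH, which was not called. Asparagine synthetase (Asns) fell by 0.82 in PTU and by 0.77 in PTU_TH (adjusted p = 0.00667 and 0.00479 with edgeR). The neutral amino acid transporter Slc1a4 fell by 0.65 and by 0.64 (adjusted p = 0.00538 and 0.000738 with edgeR). Slc25a22 (0.48, adjusted p = 0.0150) and Sdhb, a subunit of succinate dehydrogenase (0.43, adjusted p = 0.0264), rose in PTU_TH by the same test. In PTU relative to Ctrl, Slc25a22 was 0.01 ± 0.14. Sdhb was 0.40 ± 0.13 there, not called by edgeR (adjusted p = 0.0664) but called by DESeq2. Csad, Asns, Slc1a4 and Sdhb thus had near-equal values in PTU and PTU_TH, and those comparisons share the Ctrl libraries and the change of set. Markers of other cells are given for the same comparisons, as calls by edgeR. Those of oligodendrocytes and their precursors were positive in 10 of 10 genes for PTU (median log2 0.56, 1 called) and in 6 of 10 for PTU_TH (0.14, 0 called). Those of excitatory neurons were positive in 8 of 10 for PTU (0.31, 1 called) and in 6 of 10 for PTU_TH (0.11, 0 called). For other interneurons the counts were 5 of 7 (0.23, 1 called) and 3 of 7 (-0.09, 1 called), and for microglia 5 of 8 (0.86, 0 called) and 3 of 6 (0.52, 1 called). Astrocyte markers were positive in 3 of 8 (-0.09) and 2 of 8 (-0.32), and those of endothelium and mural cells in 2 of 6 (-0.23) and 2 of 6 (-0.42), with 0 called. Pv neuron markers were positive in 2 of 9 for PTU (-0.08, 0 called) and in 5 of 9 for PTU_TH (0.08, 1 called). Their part in the differences of Abat and of the related genes was not tested.

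Likeness of profile was described by r of the log2 level over 15 libraries, centred within each set, among 9791 genes. For Gls2 the 3 most alike genes were Flywch2 (r = 0.89), Camkk2 (0.88) and Dbp (0.88), and for Abat Mmp24 (0.91), Adcy1 (0.91) and Spin1 (0.89). For Slc32a1 they were Fam234b (0.97), Sparcl1 (0.95) and Tuba4a (0.95), and for Gad1, after Gad1-ps, Ndrg4 (0.98) and Pkm (0.97). For Gad2 they were Mtrr (0.89), Klhl11 (0.87) and Ankrd50 (0.87), for Aldh5a1 Fkbp7 (0.92), Ccdc159 (0.89) and Rad51c (0.86), and for Slc6a11 Ppp1r15a (0.78), Oscar (0.77) and Mest (0.77). Among the members, Gad2 had r = 0.69 with Aldh5a1 and 0.67 with Abat, and Slc6a11 had r = -0.53 with Gls2. All these points share libraries and depth.

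The RefSeq promoter table for GRCm38.p6 held 5 of the 7 members (Gad1, Gad2, Slc32a1, Slc6a11 and Aldh5a1), each as a window of 250 bases before to 50 after the start. The hexamer AGGTCA, known from nuclear receptor binding sites, was searched on both strands. It was found in 1 of the 5, Slc6a11, with 2 matches, and in 16.3% of all 32851 promoters. The same hexamer as a direct repeat with a spacer of 4 bases was in none of the 5 and in 5 of all promoters. A match describes the letters only, and no binding was measured.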

How the data were processed

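Nuclear RNA of sorted Pv nuclei was amplified (SMART-Seq v4), made into Nextera XT libraries and sequenced, per the labels' protocols. The authors deposited raw counts per gene, 1 table for each of the 15 libraries. The submitters' processing notes name Bowtie2 2.5.3, HTSeq and the build mm10 (GRCm38). Not given in the sources used here are the gene annotation, the counting mode, the strand setting and how reads with several alignments were treated.

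Groups came from the titles, whose numbers name separate mice. Every pair of libraries within a group differed beyond sampling noise (chi-square per degree of freedom 7.91 to 120 over 21 pairs), so none was merged. Each comparison used its own libraries, edgeR 4.0.16 in R 4.3.3 with limma 3.58.1, TMM, filterByExpr (minimum count 10) and robust quasi-likelihood fits. P-values were adjusted over all tested genes, and SE is the absolute log2 change divided by the square root of F. The common biological coefficient of variation was 21.9% to 27.8%. Levels are deposited counts per 1000000 of TMM-scaled library size over the 46380 shared symbols. Positions, exon lengths and overlaps come from GENCODE M21 for GRCm38. Sequences were read from GENCODE M21 transcripts, and the edgeR step was tested on simulated data. Correlations have no p. Exact permutation tests were two-sided.

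The members, the related genes, the marker lists and the tests were chosen with earlier results of these data known. Genes named beyond them are the 3 of highest r for each member with at least 5 CPM. The alternatives were DESeq2 1.42.0, RLE scaling, no filter on low counts, 1 fit of all 4 groups, Y-linked counts (over 50 CPM) as a covariate, a replicate block and leaving out each library. The addition of Gad1-ps counts was chosen after seeing the data. Some related genes, and the ratios that use them, are not reported here.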

Additional observations from a re-analysis of the deposited data

How the results depend on the processing

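Under the alternatives tried, the log2 change of Gls2 for PTU_TH against PTU was 0.51 to 0.62 over 13 settings, with an adjusted p of 0.00261 to 0.510. The number of members called there was 0 with edgeR as reported and 1, Gls2, with DESeq2 or with Y-linked counts as a covariate. For PTU_TH against Ctrl the count of members called was 0 to 1 with a library left out. Abat was lost without PTU_TH 1, 3 or 4 or Ctrl 1, 2 or 4, at adjusted p of 0.0568 to 0.0953. With the replicate block it was 0, with Abat at 0.41 (adjusted p = 0.0903, edgeR). The block rests on shared numbers only: same-numbered libraries of Ctrl and Mut had r of -0.02 to 0.18, and those of Ctrl and PTU_TH -0.16 to 0.07. PTU libraries carry other numbers than the rest, so no block was possible there. For Mut against Ctrl and PTU against Ctrl the count of members called was 0 under every setting run.

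Changes near 0 turned sign. Abat in Mut against Ctrl was 0.017 with Y-linked counts as a covariate, and -0.153 to 0.035 with a library left out. Gad1 in PTU_TH against PTU was 0.065 with that covariate. With a library left out, Gad1 was -0.20 to 0.14 in PTU_TH against PTU, -0.19 to 0.17 in PTU against Ctrl and -0.19 to 0.043 in PTU_TH against Ctrl. Likewise Gad2 was -0.030 to 0.11 in PTU_TH against Ctrl, and in PTU_TH against PTU Slc32a1 was -0.12 to 0.38 and Slc6a11 -0.32 to 0.044. The cause was not tested. The direction of Gls2 and Slc32a1 in Mut against Ctrl held under all 15 settings, at -0.58 to -0.25 and -0.41 to -0.29.

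Over all genes, edgeR called 43 for PTU_TH against PTU, DESeq2 204, the Y-linked covariate 335, and fits without 1 library 5 to 29. For Mut against Ctrl edgeR called 59, DESeq2 404, 1 fit of all groups 196, the Y-linked covariate 31, and fits without 1 library 11 to 103. For PTU against Ctrl the count was 2804, and 4283 without PTU 5.

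Slc6a11 had 25 to 95 counts per library, and changes of the size of its interval are not resolved with these libraries. The part of depth in its spread was not tested.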
